A study of Homo sapiens with 8 samples.

Results

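The chaperonin genes are the subject here: TCP1, CCT2, CCT3, CCT4, CCT5, CCT6A, CCT7 and CCT8, which encode the subunits of the cytosolic complex CCT (also called TRiC), and HSPD1 and HSPE1, which encode Hsp60 and Hsp10 of the mitochondrial matrix. They were read at the array probe sets whose annotation carries the symbol of one of these 10 genes and no other, which gave 33 of 49395 probe sets, for 10 of the 15226 genes tested. All 33 passed the filter on low signals. MIA PaCa-2, a cell line from a human pancreatic carcinoma, had received 30 μM pachymic acid (PA), a triterpenoid of the fungus Poria cocos, or DMSO, the solvent of PA, for 24 h, and total RNA of 4 PA samples and 4 DMSO samples was measured on 1 Affymetrix PrimeView array each. The values are log2 RMA signals. The labels do not say whether the 4 samples of a group came from separate passages or days, so each p-value speaks only of how far these samples spread, and that spread may be technical. In RNA of whole cultures, fewer cells with a transcript and less of it per cell cannot be told apart.

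Chaperonins are barrel-shaped machines that enclose an unfolded protein and let it fold with the help of ATP. CCT is built of rings of related subunits, each the product of its own gene, and folds actin, tubulin and many proteins with WD40 repeats, which often reach it from the cochaperone prefoldin. Hsp60 forms a barrel that Hsp10 closes like a lid and folds proteins that have been imported into mitochondria, and both genes are classic targets of the heat shock factor HSF1.

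HSPD1 and HSPE1 lie head to head on chromosome 2, so their promoter sequence is shown first, because HSF1 binds repeats of the unit NGAAN in alternating direction and a run of such units can be read in the letters. The sequences are from RefSeq (GRCh38.p14), which matched 9 of the 10 genes with 12 windows of 300 bases, each window reaching from 250 bases before a start site to 50 bases after it. CCT6A was not matched. The motifs searched on both strands were TTCNNGAA and GAANNTTC (2 units), TTCNNGAANNTTC and its reverse complement GAANNTTCNNGAA (3 units), and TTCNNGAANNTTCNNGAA (4 units), and the longer ones contain the shorter ones. Capitals mark the letters that match.
HSPD1, second start site, chr2:197499791-197500090, minus strand: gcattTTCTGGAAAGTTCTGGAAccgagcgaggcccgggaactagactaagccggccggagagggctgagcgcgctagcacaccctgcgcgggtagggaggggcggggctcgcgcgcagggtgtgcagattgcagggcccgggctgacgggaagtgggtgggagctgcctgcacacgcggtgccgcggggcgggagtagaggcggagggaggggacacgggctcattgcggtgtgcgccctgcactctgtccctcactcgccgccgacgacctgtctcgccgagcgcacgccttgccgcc
HSPE1, start site, chr2:197500129-197500428, plus strand: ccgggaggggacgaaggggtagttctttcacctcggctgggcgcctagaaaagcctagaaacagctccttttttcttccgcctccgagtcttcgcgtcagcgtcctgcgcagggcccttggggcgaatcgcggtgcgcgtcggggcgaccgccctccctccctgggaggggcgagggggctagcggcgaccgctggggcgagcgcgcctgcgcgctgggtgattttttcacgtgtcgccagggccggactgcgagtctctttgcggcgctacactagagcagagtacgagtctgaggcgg
CCT2, second start site, chr12:69585639-69585938, plus strand: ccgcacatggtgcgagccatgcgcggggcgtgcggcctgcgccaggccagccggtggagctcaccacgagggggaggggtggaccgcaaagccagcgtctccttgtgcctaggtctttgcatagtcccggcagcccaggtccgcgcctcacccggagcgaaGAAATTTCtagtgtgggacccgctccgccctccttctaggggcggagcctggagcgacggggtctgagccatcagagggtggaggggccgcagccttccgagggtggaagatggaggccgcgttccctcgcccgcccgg
The run of 4 units in HSPD1, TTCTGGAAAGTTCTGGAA at chr2:197500068-197500085, begins 245 bases before the second HSPD1 start site, 189 bases inside the gene from its first start site and 294 bases before the start site of HSPE1. Such a run is found in 9 of 35114 promoter windows (0.0256%), and a run of 3 units in 172 (0.49%). HSPD1 was the only one of the 9 matched members with 3 or more units. CCT2, TCP1 and CCT4 each had a match of 2 units in 1 window, which 13.5% of all windows hold, and the windows of CCT3, CCT5, CCT7, CCT8 and HSPE1 had none. The CCT5 window belongs to a start site at chr5:10250537, inside the gene, which begins at 10249921. The sequence before that beginning was not searched. A match is a description of letters, and no match says only that these letters are not in the window.

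Each array gave a median signal of 5.71 to 5.77 and a maximum of 14.58 to 14.62, and pairs of arrays correlated at 0.9964 to 0.9977 in the same group and at 0.9931 to 0.9964 across groups. No pair of arrays held identical values. The 8 background probe sets richest in G and C, which match no human transcript, averaged 7.12, 7.02, 6.92 and 7.05 in the PA arrays 1 to 4, against 6.70, 6.59, 6.95 and 6.83 in the DMSO arrays (p = 0.0571, two-sided exact permutation test). The 18 hybridization controls, spiked into each sample, also differed, at 11.07, 10.99, 11.05 and 10.98 in the PA arrays, against 10.91, 10.94, 10.96 and 10.93 in the DMSO arrays. These groups did not overlap, with p = 0.0286 by the same exact test, which can go no lower with 4 arrays a group, and the means of 11.02 in PA and 10.94 in DMSO arrays lie nearly as far apart as those of several chaperonin genes. The part of the hybridization controls in the results was not tested, while the GC-rich background is set beside them. Of 8 markers of epithelial and pancreatic carcinoma cells 7 were measured and 2 passed (KRT8 and KRT18, raised), with summed signals of 14.37 to 14.48 in PA and 14.30 to 14.39 in DMSO arrays. KRT18 (13.57 ± 0.030 in PA and 13.39 ± 0.045 in DMSO arrays, SD, n = 4 each) and KRT19 were bright, while those that define epithelium, EPCAM and CDH1, lay with KRT7 near the floor of 4, with means of 3.97 to 4.39. Of 9 markers of fibroblasts and endothelium 7 were measured and 1 passed (COL1A2, lowered), with summed signals of 10.41 to 10.65 in PA and 10.70 to 10.99 in DMSO arrays. COL1A2 (means of 9.9 in PA and 10.4 in DMSO arrays) and CDH5 (7.9 and 7.5) were the brightest. The other measured ones had means of 5.1 to 7.3, and LUM and DCN were below the floor. Of 7 leukocyte markers 4 were measured and 1 passed (CD14, lowered), with sums of 8.98 to 9.11 in PA and 9.04 to 9.18 in DMSO arrays. CD68 (8.5 in PA and 8.4 in DMSO arrays) and CD14 (6.83 and 7.35) were the brightest, while CD3E and ITGAM had means of 4.1 to 4.7. PTPRC, which defines leukocytes, was below the floor. The part of these markers in the results was not tested.

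Chaperonin signals differed little between PA and DMSO arrays. CCT2 and CCT5 were raised, by 1.12-fold and 1.11-fold, and the other 8 of the 10 genes did not pass. A gene was read at its brightest probe set and called where the adjusted p was under 0.05, whatever its fold, from limma with Benjamini-Hochberg adjustment over all 15226 genes. By this rule 9.69% of all genes were raised and 11.9% lowered, which would be about 1 of 10 genes each way, so the counts of 2 raised and 0 lowered differ from these shares by about 1 gene. With each array centred on its median, all genes split into 1161 raised and 2169 lowered, against 1476 and 1812 as deposited. The median log2 change over the 10 genes was 0.11, against 0.015 over all genes tested (range over the members -0.11 to 0.16). At the threshold of 1.5-fold, which 0.466% of genes passed upward and 0.709% downward, 0 of the 10 genes were called. In 5 of the 10 genes (TCP1, CCT2, CCT3, CCT5 and HSPE1) all PA arrays lay above all DMSO arrays, as they did in 11.9% of all genes, and in 0 all lay below, which 14.5% of all genes did.
At the level of probe sets, 11 of the 33 were raised and 0 lowered, against 8% raised and 9.07% lowered of 38748 probe sets. Probe sets of a gene share transcripts, and 4 of the 11 belong to CCT5. Of the 28 bright probe sets, those with a group mean of at least 9, 7 were raised and 0 lowered, and their log2 changes ran between -0.14 and 0.24 with a median of 0.09. The 95% intervals of all 28 lay between -0.26 and 0.36, within less than 1.5-fold in either direction. The median SD within groups was 0.041 for the 10 genes, against 0.099 for all genes and 0.040 for the 533 genes with a mean signal of at least 12. Of those 533 genes 10.3% were raised and 7.69% lowered. The 7 raised bright probe sets had DMSO means of 10.8 to 12.6. Of the 3572 probe sets with DMSO means from 10 to 12, 11.5% were raised and 14.7% lowered. Of the 657 with DMSO means from 12 to 13, 8.98% were raised and 7.76% lowered. Of the 376 probe sets with DMSO means of 13 or above 2.39% were raised and 1.33% lowered.

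**Figure D1:**
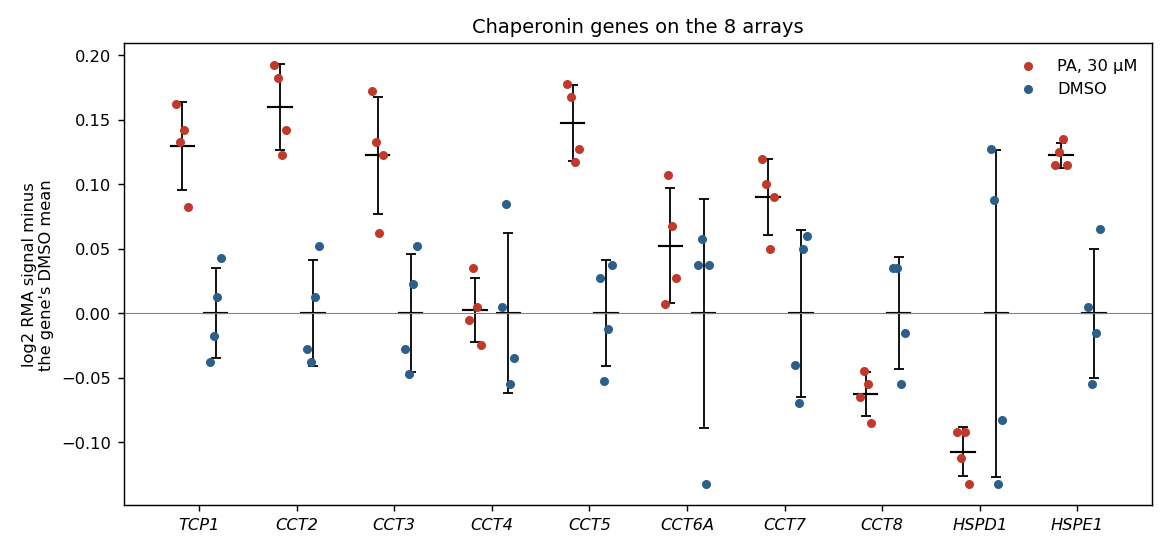
Log2 RMA signal of each chaperonin gene at its brightest probe set on each array, minus the mean of the gene's 4 DMSO arrays. Points are arrays (replicates 1 to 4 from left to right), lines are group means and bars are SD (n = 4). The PA points lie above all DMSO points in TCP1, CCT2, CCT3, CCT5 and HSPE1, and the groups overlap in the other 5 genes.

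CCT2, the beta subunit, was the member with the largest change at the level of genes. Its log2 signal was 12.20, 12.19, 12.13 and 12.15 in the PA arrays, against 11.98, 11.97, 12.02 and 12.06 in the DMSO arrays. The groups did not overlap, and the change was 0.16 on the log2 scale (SE 0.04, adjusted p = 0.0254 from limma). Its dimmer probe set was at 11.03, 11.01, 11.00 and 11.02 in the PA arrays, against 10.87, 10.67, 10.73 and 10.82 in the DMSO arrays. It changed by 0.24 (adjusted p = 0.0163 over all probe sets), and was the bright member probe set with the largest change.
CCT5, the epsilon subunit, altered forms of which cause a sensory neuropathy, has 6 probe sets, of which 4 were raised. At the brightest it was at 13.27, 13.26, 13.21 and 13.22 in the PA arrays, against 13.12, 13.04, 13.08 and 13.13 in the DMSO arrays. The change was 0.15 (SE 0.04, adjusted p = 0.0329 over all genes), while the same probe set missed the threshold over all probe sets (adjusted p = 0.0513 from limma). The 3 probe sets with DMSO means of 11.52 to 12.59 changed by 0.22 to 0.24, and their groups did not overlap, with PA arrays on top. These 3, like the dimmer CCT2 probe set, passed whichever single array was left out. With a replicate block none of these probe sets passed (adjusted p between 0.0512 and 0.0631 from limma). With the GC-rich background in the fit none passed either (between 0.164 and 0.321).
The gene calls of CCT2 and CCT5 did not hold up to leaving out arrays. CCT2 missed the threshold when PA replicate 1, 2 or 4 or DMSO replicate 1 or 2 was left out (limma's adjusted p then lay between 0.054 and 0.0698). CCT5 missed it when any array but DMSO replicate 4 was left out (between 0.0532 and 0.0861). When the GC-rich background was added to the fit CCT2 changed by 0.10 (adjusted p = 0.369 from limma) and CCT5 by 0.11 (adjusted p = 0.351), with standard errors 1.37 and 1.45 times as large.

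TCP1, the alpha subunit after which the complex is named, came close to the threshold. Its signal was 12.96, 12.93, 12.94 and 12.88 in the PA arrays, against 12.76, 12.78, 12.81 and 12.84 in the DMSO arrays. The change of 0.13 had an adjusted p of 0.0502 from limma, and that of its second probe set was 0.12 (adjusted p = 0.0939 over all probe sets). CCT3, the gamma subunit, was at 12.83, 12.79, 12.72 and 12.78 in the PA arrays, against 12.63, 12.61, 12.68 and 12.71 in the DMSO arrays. This change of 0.12 did not pass (adjusted p = 0.0789 from limma). Of its 5 probe sets 2 were raised, by 0.17 and 0.16, and the other 3 changed by 0.08 to 0.12. When 1 array was left out, the first of these passed in 1 of 8 fits and the second in 0 of 8. CCT7, the eta subunit, has 1 probe set, at 13.04, 13.02, 12.97 and 13.01 in the PA arrays, against 12.88, 12.85, 12.97 and 12.98 in the DMSO arrays. The groups overlapped, since PA replicate 3 lay at or below the 2 highest DMSO arrays, and the change was 0.09 (95% interval -0.01 to 0.19, adjusted p = 0.193 from limma).

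CCT4, CCT6A and CCT8 did not pass, and their groups overlapped. CCT4, the delta subunit, was at 13.51, 13.55, 13.52 and 13.49 in the PA arrays, against 13.52, 13.60, 13.46 and 13.48 in the DMSO arrays. Its change was 0.00 (95% interval -0.10 to 0.10), and its 4 probe sets changed by -0.03 to 0.00. CCT6A, the zeta subunit, was at 11.60, 11.70, 11.66 and 11.62 in the PA arrays, against 11.63, 11.65, 11.46 and 11.63 in the DMSO arrays, with DMSO replicate 3 apart from the other arrays. The change was 0.05 (95% interval -0.07 to 0.17, adjusted p = 0.521 from limma).
CCT8, the theta subunit, was lower in PA arrays at its 3 bright probe sets, and none of them passed. The brightest was at 13.40, 13.42, 13.41 and 13.38 in the PA arrays, against 13.50, 13.50, 13.41 and 13.45 in the DMSO arrays. DMSO replicates 1 and 2 were the highest, and the change was -0.06 (95% interval -0.15 to 0.03, adjusted p = 0.301 from limma). The next was at 13.33, 13.35, 13.36 and 13.31 in the PA arrays, against 13.56, 13.54, 13.38 and 13.43 in the DMSO arrays. All PA arrays lay below all DMSO arrays there, and its change of -0.14 had an adjusted p of 0.105 over all probe sets. A probe set that CCT8 shares with the pseudogene CCT8P1, and which is therefore not a member, was at 11.76, 11.76, 11.78 and 11.77 in the PA arrays, against 12.18, 12.19, 11.87 and 11.92 in the DMSO arrays. It fell by 0.27 on the log2 scale (adjusted p = 0.0427 from limma), and its DMSO arrays fell into a high pair, replicates 1 and 2, and a low pair, replicates 3 and 4. The GC-rich background was lower in the high pair, at 6.70 and 6.59, than in the low pair, at 6.95 and 6.83. With that background in the fit the 3 bright CCT8 probe sets changed by -0.03 to 0.00.

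HSPD1, the Hsp60 subunit, did not pass at its brightest probe set, and its 7 probe sets did not move alike. The brightest was at 13.35, 13.33, 13.35 and 13.31 in the PA arrays, against 13.57, 13.53, 13.31 and 13.36 in the DMSO arrays. DMSO replicates 1 and 2 stood above all PA arrays, and replicates 3 and 4 lay at about their level, so that the change was -0.11 (95% interval -0.25 to 0.04, adjusted p = 0.257 from limma). A second bright probe set was at 13.05, 13, 13.05 and 13.05 in the PA arrays, against 12.92, 12.87, 12.94 and 12.94 in the DMSO arrays. Here all PA arrays lay above all DMSO arrays, with a change of 0.12 (adjusted p = 0.0879 over all probe sets). The other 3 bright HSPD1 probe sets changed by 0.04 to 0.06 and did not pass, and a probe set shared with the pseudogene HSPD1P5 changed by 0.02. With the mean of all 7 probe sets in place of the brightest, HSPD1 was raised by 0.17 (adjusted p = 0.0283 from limma). That mean holds 2 dim probe sets with larger changes, described below.
HSPE1, the Hsp10 lid, has 1 probe set of its own, at 10.11, 10.12, 10.13 and 10.11 in the PA arrays, against 10.00, 9.94, 9.98 and 10.06 in the DMSO arrays. The PA arrays lay within 0.02 of each other and above all DMSO arrays, and the change of 0.12 missed the threshold (SE 0.04, adjusted p = 0.0636 from limma). The probe sets that HSPE1 shares with the read-through gene HSPE1-MOB4 changed by 0.15 at a DMSO mean of 9.07 and by 0.04 at a DMSO mean of 12.80, and neither passed (adjusted p = 0.0641 and 0.724 over all probe sets).

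The largest log2 changes of the 33 probe sets were at 4 dim ones, with DMSO means of 4.13 to 4.93, close to the floor of 4. All 4 were raised, with fitted log2 changes of 0.48 to 0.54, where 3.86% of the 8411 probe sets with DMSO means from 4 to 5 were raised and their median change was 0.05. Signals this low are not shown to be above background, so the sizes of these changes are not exact. HSPD1 had 2 of them, made from the same transcript record. The first was at 5.17, 5.41, 5.69 and 5.43 in the PA arrays, against 4.83, 5.10, 4.84 and 4.96 in the DMSO arrays (change 0.49, adjusted p = 0.0147 from limma), and the second at 4.85, 5.08, 5.28 and 5.10 in the PA arrays, against 4.57, 4.49, 4.50 and 4.61 in the DMSO arrays (change 0.54, adjusted p = 0.00398). In both, all PA arrays lay above all DMSO arrays, and both passed without any single array.
The dim CCT5 probe set was at 4.89, 4.88, 4.71 and 5.05 in the PA arrays, against 4.15, 4.08, 4.71 and 4.46 in the DMSO arrays, with a tie between PA replicate 3 and DMSO replicate 3 (change 0.53, adjusted p = 0.0269 from limma). Another CCT5 probe set from the same transcript record, at a DMSO mean of 11.52, changed by 0.22. The dim CCT8 probe set was at 4.20, 4.95, 4.60 and 4.69 in the PA arrays, against 3.99, 4.24, 4.08 and 4.22 in the DMSO arrays, while the bright CCT8 probe sets were lower in PA arrays. Its groups overlapped (change 0.48, adjusted p = 0.0441 from limma). When 1 array was left out, the CCT5 probe set passed in 3 of 8 fits and the CCT8 one in 1 of 8. With the GC-rich background in the fit the CCT5 probe set changed by 0.10 (adjusted p = 0.70 from limma), the CCT8 one by 0.62 (0.193) and the HSPD1 ones by 0.74 (adjusted p = 0.0445) and 0.64 (0.0558), and the first HSPD1 one was the only member probe set that passed in that fit. Of the 33 probe sets, 14 carry the suffix _x_at and 3 the suffix _s_at, by which the array's maker marks probes that can bind other transcripts, so values of these genes are uncertain where pseudogenes share their sequence.

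**Figure D2:**
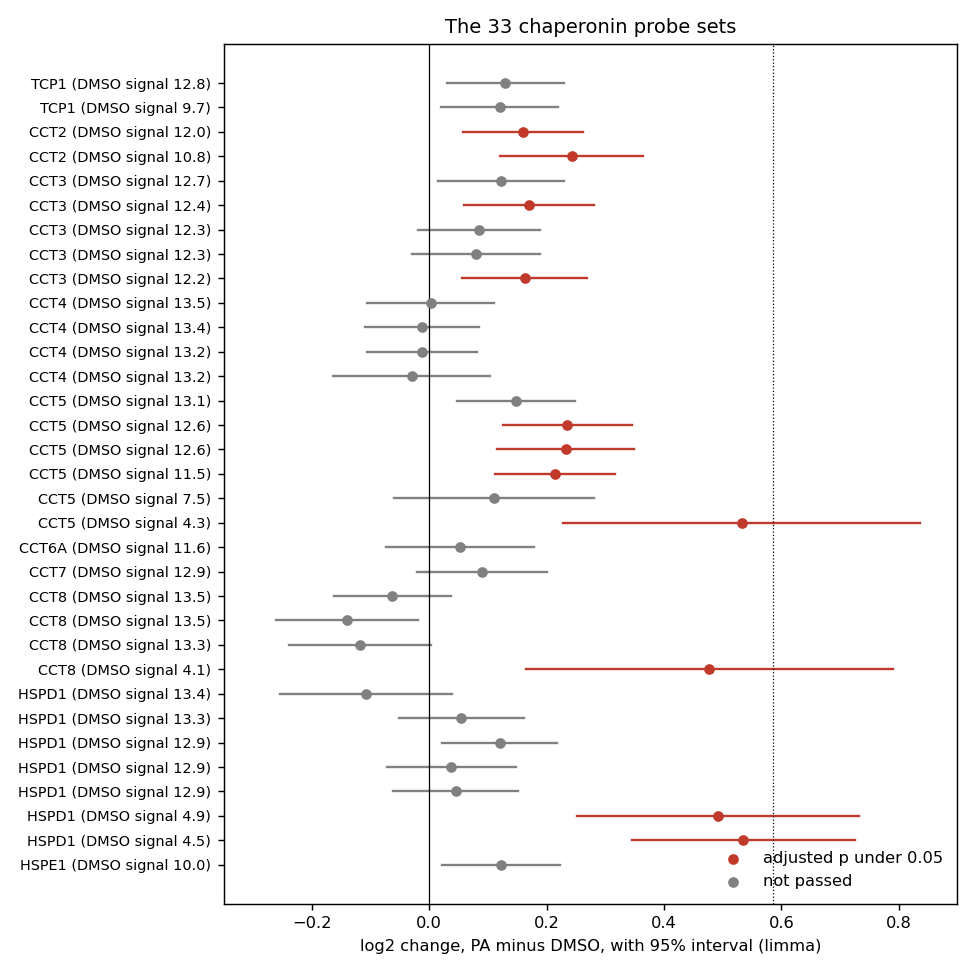
Log2 change (PA minus DMSO) of the 33 chaperonin probe sets, by gene and by falling mean signal over the 8 arrays, with 95% intervals from limma (n = 4 arrays a group). The solid line marks no change and the dotted line 1.5-fold. The 11 raised probe sets are 7 bright ones of CCT2, CCT3 and CCT5 and 4 dim ones of CCT5, CCT8 and HSPD1.

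The members differed in how their deviations from the group means went with those of the GC-rich background. The 8 arrays of both groups were pooled, as a description, and share a normalization. CCT7 deviated with the background (r = 0.93), as did CCT3 (0.84), CCT2 (0.74), CCT5 (0.49), TCP1 (0.44) and HSPE1 (0.33). CCT8 (r = -0.85), CCT4 (-0.83), HSPD1 (-0.80) and CCT6A (-0.77) deviated against it. Members of the same direction also deviated together, with r = 0.95 for CCT2 and CCT3, 0.92 for CCT3 and CCT7 and 0.92 for CCT8 and HSPD1, while CCT7 and HSPD1 were at r = -0.84. Over all 45 pairs the median was 0.06. The background spread more among DMSO arrays (SD 0.15) than among PA arrays (SD 0.082), so DMSO arrays weigh more in these values. In the PA arrays alone the directions did not all hold, since HSPE1 was highest, at 10.13, in PA replicate 3, where the background was lowest, and HSPD1 was equally high, at 13.35, in PA replicates 1 and 3, where the background was highest and lowest. The background was higher in PA arrays, and the 4 genes that deviated against it are those with the lowest changes. The part of the background in these changes was not tested. Since the background differed between the groups, its part cannot be told apart from that of PA. With the background in the fit CCT7 changed by -0.01, CCT8 by 0.00, CCT4 by 0.08, CCT6A by 0.17 and HSPD1 by 0.04. In that fit 0 of the 10 genes passed (with 238 raised and 232 lowered over all genes), and standard errors were 1.17 to 1.48 times as large.

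**Figure D3:**
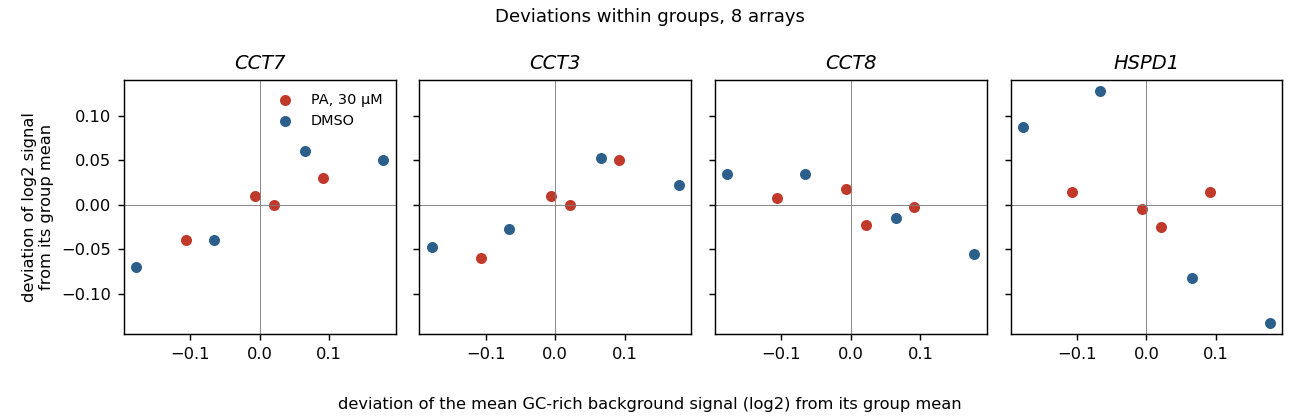
Deviation of the log2 signal of CCT7, CCT3, CCT8 and HSPD1 from its group mean on each of the 8 arrays (vertical) against the deviation of the mean log2 signal of the 8 GC-rich background probe sets (horizontal). CCT7 and CCT3 rise along the axis (r = 0.93 and 0.84), and CCT8 and HSPD1 fall (r = -0.85 and -0.80).

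Genes that work with the chaperonins were read from 6 lists. By the rule used for the members, 9.69% of all genes were raised and 11.9% lowered. The counts for CCT cofactors, CCT substrates and mitochondrial chaperones and proteases lay near these shares. Of 21 measured HSF1 targets other than the members, 14 were raised and 0 lowered, with a median log2 change of 0.25. HSPA6, a strictly inducible Hsp70, changed by 3.29 (adjusted p = 6.69e-06 from limma), with PA signals of 7.81 to 8.50 and DMSO signals of 4.62 to 4.90. The DMSO signals lie near the floor of 4 and are not shown to be above background, so the size of that change is not exact. HSPA1B changed by 0.92, the HSF1 target ZFAND2A by 1.12 and DNAJB1, the Hsp40 partner of Hsp70, by 0.64. CHORDC1, a cochaperone of Hsp90 and the only gene of this list whose promoter window holds a run of 4 units, was raised by 0.43. Of the genes with such a run, 4 were tested, and of these HSPD1, COMMD1 (-0.07) and TMEM95 (0.01) did not pass. The 10 chaperonin genes, of which 2 were raised at a median of 0.11, lay lower than these HSF1 targets with their median of 0.25, and the difference itself was not tested.
Of 14 measured genes of prefoldin and of other CCT cofactors 1 was raised and 0 lowered, with a median of -0.03. The raised gene was PFDN2, a subunit of prefoldin, at 11.00, 10.98, 11.03 and 10.95 in the PA arrays, against 10.46, 10.55, 10.61 and 10.64 in the DMSO arrays (log2 change 0.43, adjusted p = 9.77e-04 from limma). PDRG1, PFDN5 and URI1 changed by 0.17, -0.13 and -0.12 and did not pass. Of 25 measured CCT substrates 3 were raised and 2 lowered, with a median of 0.04. TUBG1, the gamma tubulin that nucleates microtubules, was raised by 0.28 and TUBB2A, a beta tubulin, by 0.16, while TUBA1A, an alpha tubulin, fell by 0.25 and HDAC3, a histone deacetylase, fell by 0.25 on the log2 scale. The TUBB2A call was lost with arrays centred on their medians (limma's adjusted p = 0.0636) and with a replicate block (0.0751). It was also lost when PA replicate 1, 2 or 4 was left out. In the list of chaperonin-like genes, which also holds CLPB, a chaperone of another family, 5 were measured. CCT6B, a second zeta subunit known from testis, was lowered (change -0.21, adjusted p = 0.0167 from limma). The other 4 did not pass, of which BBS10 changed by -0.14, CLPB by 0.16 and MKKS by 0.08.
On the mitochondrial side, 7 of 18 measured import genes were raised and 0 lowered, with a median of 0.12. Of these 7, TOMM40 and TIMM8B passed narrowly (adjusted p = 0.0494 and 0.0498 from limma). TIMM17A, a channel subunit of the inner membrane translocase, was at 11.08, 11.17, 11.14 and 11.15 in the PA arrays, against 10.77, 10.65, 10.68 and 10.86 in the DMSO arrays (log2 change 0.40, adjusted p = 0.00191 from limma). TIMM10, a carrier of the intermembrane space, was raised by 0.30 on the log2 scale, TIMM44, which holds the matrix Hsp70 at the channel, by 0.25 and TOMM5 by 0.20. Of 21 measured chaperones and proteases of mitochondria 2 were raised (GRPEL2, a nucleotide exchange factor of the matrix Hsp70, by 0.18, and PMPCA, a subunit of the processing peptidase, by 0.20) and 2 lowered (OMA1, a stress-activated protease, by -0.28, and PMPCB, the partner of PMPCA, by -0.14), with a median of 0.03. The direction of PMPCB was not stable, since it changed by 0.12 as a mean over its probe sets (adjusted p = 0.152 from limma), and its call was lost when any array but DMSO replicate 1 was left out (limma's adjusted p between 0.0579 and 0.106). The calls of PMPCA and GRPEL2 were lost with arrays centred on their medians (limma's adjusted p = 0.0787 and 0.0802) and with a replicate block (0.0502 and 0.0945). Both were also lost when PA replicate 2 or 3 was left out. With the GC-rich background in the fit, of the genes named by rank in these 6 lists PFDN2, HSPA6, HSPA1B, ZFAND2A and DNAJB1 still passed.

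**Figure D4:**
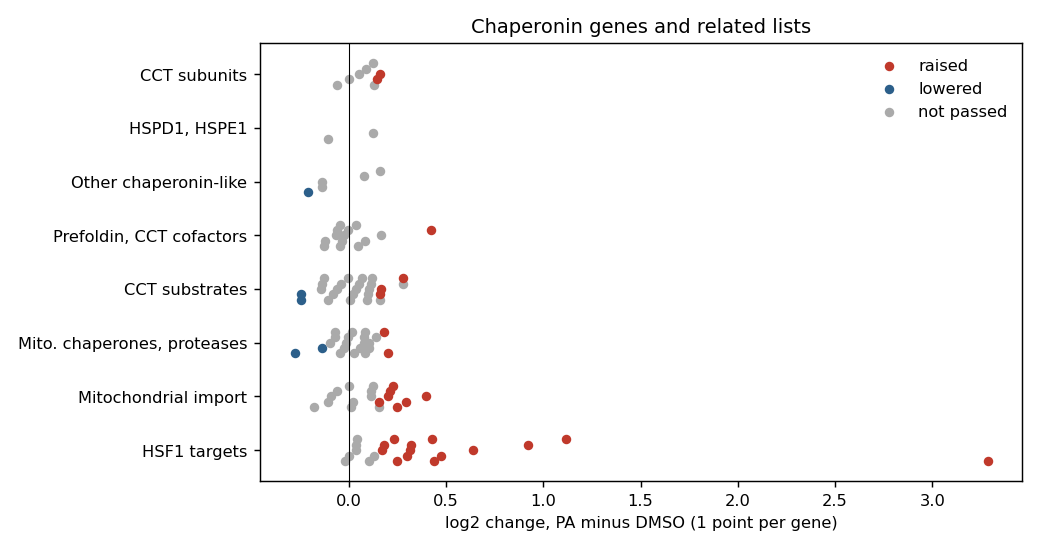
Log2 change (PA minus DMSO) of each measured gene of the chaperonin subunits and of 6 related lists. A point is a gene at its brightest probe set, red if raised, blue if lowered and grey if not passed at an adjusted p under 0.05 from limma. HSF1 targets reach 3.29, and the chaperonin genes lie between -0.11 and 0.16.

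The genes whose signals over the 8 arrays were most like the mean of the 8 CCT genes were NIPA2, a magnesium transporter, RPP38, a subunit of RNase P, RRS1, a factor of ribosome assembly, and CEP170B, with Pearson's r of 0.99 each. The CCT mean itself was 12.85, 12.86, 12.82 and 12.82 in the PA arrays, against 12.75, 12.75, 12.74 and 12.79 in the DMSO arrays, and its groups did not overlap. The 8 arrays share a normalization. The 4 genes changed by 0.25 to 0.47 on the log2 scale and passed, which their choice by likeness to a mean without overlap nearly fixes. With the GC-rich background in the fit none of the 4 passed (adjusted p between 0.0928 and 0.17 from limma). The mean of HSPD1 and HSPE1 was 11.73, 11.73, 11.74 and 11.71 in the PA arrays, against 11.79, 11.74, 11.65 and 11.71 in the DMSO arrays, and the groups overlapped. The genes most like it were UBE2N, a ubiquitin-conjugating enzyme, CEBPZ, RMP64 and the prefoldin subunit PFDN4, with r of 0.95 each and changes of 0.01 to 0.05 that did not pass.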

How the data were processed

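RNA of each sample was labelled with an Affymetrix kit and read on a PrimeView array. The deposited values are log2 RMA signals that the authors made with Partek (the submitters' processing notes name GCOS, Partek and RMA, without versions). Whether arrays of the second cell line of their 2-way ANOVA entered the normalization is not given in the sources used here, and that line was not analysed here.

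Of 49395 probe sets, 102 are controls and 44988 others carry a single symbol in the platform annotation, of which 0 changed against RefSeq names. Probe sets were tested when the higher group mean was at least 4, which kept 38748. A gene was read at its single-symbol probe set with the highest mean over the 8 arrays. PA was compared with DMSO in limma 3.58.1 (lmFit, eBayes; R version 4.3.3), and p-values were adjusted by Benjamini-Hochberg over all genes or all probe sets. limma was tested on simulated data. Groups came from the sample labels. Python 3.11.15 with matplotlib 3.10.9 drew the figures.

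The named genes are all 10 members, in each list the up to 4 members with the smallest p, and for each member mean the 4 genes of highest correlation. EPCAM, CDH1, LUM, DCN, PTPRC, CHORDC1, COMMD1, TMEM95, TOMM40 and TIMM8B fell outside this rule and were chosen with their values known. The members and lists were chosen with earlier results of these data known. Alternatives were other filters, normalizations, limma options, a plain ANOVA, a replicate block, the GC-rich background as a term of the fit, the mean of a gene's probe sets, other thresholds and leaving out each array.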

Additional observations from a re-analysis of the deposited data

Results flagged for a closer look

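Of the 66 groups of 4 arrays (33 probe sets in PA and in DMSO arrays), 2 held an array far from the others, where chance alone flags about 1 in 20. CCT6A in DMSO replicate 3 was at 11.46, against 11.63 to 11.65 in the other 3 DMSO arrays, a gap of 0.895 of the whole range. At an HSPD1 probe set PA replicate 2 was at 13 and the other 3 PA arrays all at 13.05, a gap of 1 times the range, in values that are given to 2 decimals.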

How the results depend on the processing

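The count of raised genes among the 10 members was 2 as reported. It was 4 with a group mean of at least 5, with quantile normalization over the 8 arrays alone and with the mean of a gene's probe sets, 5 with an intensity trend and in a plain ANOVA, 1 with arrays centred on their medians, and 0 with a replicate block, with the GC-rich background in the fit, at 1.5-fold and at an unadjusted p under 1e-05. Leaving out 1 array gave 0 to 3. The 11 raised probe sets became 17 with an intensity trend, which also gave 2 lowered, 7 without a filter and with arrays centred, 3 with the replicate block, 1 with the GC-rich covariate, 0 at 1.5-fold and at an unadjusted p under 1e-05, and 6 to 9 without 1 array. Among probe sets with a mean of at least 9, a setting chosen after seeing the data, they were 7. The 3 raised with the replicate block were dim ones of CCT8 and HSPD1. The cause of these shifts in the counts was not tested.

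Deviations of same-numbered arrays correlated at -0.153 to 0.0527. So few arrays cannot decide whether the replicate numbers pair the samples, and the labels do not say. The block gave 867 genes raised and 1162 lowered in place of 1476 and 1812, the GC-rich covariate 238 and 232, and leaving out PA replicate 2 gave 955 raised.

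Some small changes turned sign. CCT4 was at -0.025 with arrays centred and -0.0131 as a mean over probe sets, and lay between -0.0158 and 0.0308 when 1 array was left out. CCT7 (-0.0082), HSPD1 (0.0438) and CLPB (-0.0367) turned with the GC-rich background in the fit. CCT8 (0.0394), HSPD1 (0.1682) and PMPCB (0.115) turned with the mean of probe sets. UBE2N (-0.0225) turned with centring. Without 1 array UBE2N lay between -0.0367 and 0.04, CEBPZ between -0.0333 and 0.08 and PFDN4 between -0.0467 and 0.1333, each lowest without DMSO replicate 3. Of the 190 values of the members under alternatives 152 kept their direction and side of the threshold, 17 no longer passed, 12 passed anew and 9 turned sign. With 4 arrays a group the precision is limited. Small differences set calls apart at the threshold, since TCP1 with a change of 0.13 did not pass (adjusted p = 0.0502 from limma). CCT5 with 0.15 did (adjusted p = 0.0329 from limma), at an SE of 0.04 in both genes.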
